A study of Astyanax mexicanus with 6 samples.

Results

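The enzymes that make and break down serotonin, dopamine and melatonin are described here in the developing eyes of Astyanax mexicanus, the Mexican tetra, a fish with cave-dwelling and surface-dwelling morphs. Genes were chosen by name: tph2, th, th2, ddc and mao, and every name that starts with tph1, aanat or asmt. The rule found 11 of 25271 genes in the table: tph1a, tph2, th, th2, ddc, mao, a copy named AANAT, aanat2, asmt, asmt2 and asmtl. The family was proposed with the RNA counts of tph2 and th and the upstream methylation of th already known, so the difference between morphs in those 2 genes is given as a description, with no test. The samples were eyes of wild type cave fish and wild type surface fish taken at around 54 hours post-fertilization, with 2 poly(A) RNA libraries per morph and 1 library per morph of whole-genome bisulfite sequencing (WGBS), a method that reads unmethylated cytosine as thymine. The labels do not name the cave population, give the number of embryos in a library or say if replicates are separate pools of eyes, so p-values measure library-to-library spread that may be technical.

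Serotonin and melatonin share a starting point. Tryptophan hydroxylase (tph genes) carries out the slow step from tryptophan, and aromatic amino acid decarboxylase (ddc) completes serotonin; arylalkylamine N-acetyltransferase (aanat genes) and acetylserotonin O-methyltransferase (asmt genes) turn serotonin into melatonin, mostly at night in photoreceptors and the pineal organ of fishes. Dopamine is made from tyrosine by tyrosine hydroxylase (th) and ddc, in the retina by a sparse class of amacrine cells, and monoamine oxidase (mao) degrades serotonin and dopamine.

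The RNA libraries held 132739496 and 117742250 counts for the labelled cave pair and 146907747 and 154476181 for the labelled surface pair. RNA groups are called by their labels because genes of photoreceptors were far apart between them. Of 22 photoreceptor markers 21 were past the threshold and higher in cave-labelled libraries, against 2.77% of all genes tested. Their summed level was 5820 and 6530 CPM there (counts scaled to a common library total), against 122 and 134 CPM in surface-labelled libraries. Whether the labels of the RNA libraries are right was not tested. Genes listed as markers of the forebrain and hypothalamus were also found in all 4 eye libraries, apart from avp, with 0 counts in cave replicate 2. Their levels are set beside the results they touch. Whether these genes are also expressed in the retina was not tested. Bulk libraries cannot tell fewer cells of a type from less RNA per cell.

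The neuronal tryptophan hydroxylase gene tph2 (ENSAMXG00000003777, scaffold KB882123.1, 2389049 to 2398140, plus strand) was nearly absent from cave-labelled libraries. It had 24 and 7 counts in cave-labelled libraries, against 365 and 1033 in surface-labelled ones, or 0.120 ± 0.0858 CPM against 4.59 ± 2.97 CPM (SD, n = 2). The groups did not overlap, and the lower surface library lay 13.7-fold above the higher cave library. The log2 fold change in edgeR, labelled cave over labelled surface, was -5.13 (SE 0.85), with -6.11 without cave replicate 1, -4.66 without cave replicate 2, -5.72 without surface replicate 1 and -4.36 without surface replicate 2. Taken as independent, the 7 counts of cave replicate 2 carry an exact Poisson interval of 2.81 to 14.4 (95%, counting error only). Both mates of most read pairs seem to be counted, so this interval is too narrow. The gene overlaps ENSAMXG00000003786, which lies on the opposite strand and had 582 and 149 counts in cave-labelled libraries and 571 and 664 in surface-labelled ones. The sources used here do not say that counting used strand, so reads of the overlap may be split between them.

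The other tryptophan hydroxylase gene, tph1a (ENSAMXG00000018104, KB871834.1, 4504608 to 4511760, minus strand), which zebrafish express in retina and pineal organ, did not share that difference in level. It had 2075 and 1331 counts in cave-labelled libraries, against 1264 and 1928 in surface-labelled ones, and the groups overlapped. Its log2 fold change was 0.44 (SE 0.32; edgeR, Benjamini-Hochberg adjusted p = 0.532). Per 100 counts of tph1a there were 1.16 and 0.526 counts of tph2 in cave-labelled libraries, against 28.9 and 53.6 in surface-labelled ones. This ratio is not corrected for transcript length, so it can be read only between libraries.

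The tyrosine hydroxylase gene th (ENSAMXG00000016719, KB871579.1, 3365037 to 3383660, plus strand) had 516 and 252 counts in cave-labelled libraries, against 893 and 2295 in surface-labelled ones. Its level was 3.01 ± 1.24 CPM against 10.5 ± 6.21 CPM (SD, n = 2). The groups did not overlap, but the nearest libraries of the 2 groups differed 1.56-fold, less than the 2.44-fold between the surface-labelled replicates. In edgeR its log2 fold change was -1.69 (SE 0.54) on all 4 libraries, -2.15 without cave replicate 1, -2.24 without surface replicate 1, -1.43 without cave replicate 2 and -1.02 without surface replicate 2.

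Its relative th2 (ENSAMXG00000014162, KB882268.1, 21961 to 31953, minus strand), a gene of the hypothalamus in zebrafish, had 114 and 16 counts in cave-labelled libraries, against 153 and 283 in surface-labelled ones. The cave replicates differed 6.32-fold in CPM, more than the 2.89-fold between the group means. The log2 fold change was -1.45 (SE 0.94; edgeR, Benjamini-Hochberg adjusted p = 0.486). It was -3.27 without cave replicate 1 (Benjamini-Hochberg adjusted p = 0.00079 in edgeR) and -0.76 without cave replicate 2, so its size depended on which cave library was used.

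The decarboxylase gene ddc (ENSAMXG00000019455, KB871691.1, 357757 to 392478, plus strand), shared by serotonin and dopamine synthesis, had the widest gap after tph2 among the serotonin and dopamine genes. It had 154 and 51 counts in cave-labelled libraries, against 530 and 1113 in surface-labelled ones, or 0.797 ± 0.514 CPM against 5.41 ± 2.54 CPM (SD, n = 2). The groups did not overlap, with a 3.11-fold gap between the nearest libraries. Its log2 fold change of -2.67 (SE 0.66) missed the threshold of 0.05 (edgeR, Benjamini-Hochberg adjusted p = 0.116). By DESeq2 it was past the threshold (Benjamini-Hochberg adjusted p = 0.00062). In edgeR the log2 fold change was -3.51 without cave replicate 1, -2.23 without cave replicate 2, -3.12 without surface replicate 1 and -2.19 without surface replicate 2. Such fits leave a single library in a group, which is assumed to vary like the other group. The gene overlaps ENSAMXG00000019461 on the same strand, which had 356 and 75 counts in cave-labelled libraries and 640 and 1347 in surface-labelled ones, so some reads may be shared.

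The monoamine oxidase gene mao (ENSAMXG00000002529, KB871578.1, 5094206 to 5146433, plus strand) had the smallest difference of the serotonin and dopamine genes whose groups did not overlap. It had 3800 and 2055 counts in cave-labelled libraries, against 4234 and 6385 in surface-labelled ones, and cave replicate 1 and surface replicate 1 were nearly level at 28.6 and 28.8 CPM. Its fitted log2 fold change was -0.52 (SE 0.31; edgeR, Benjamini-Hochberg adjusted p = 0.441). Without cave replicate 1 it was -0.88 and past the threshold (edgeR, Benjamini-Hochberg adjusted p = 0.0156), and with any of the other libraries left out it lay between -0.78 and -0.31 and was not.

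**Figure D1:**
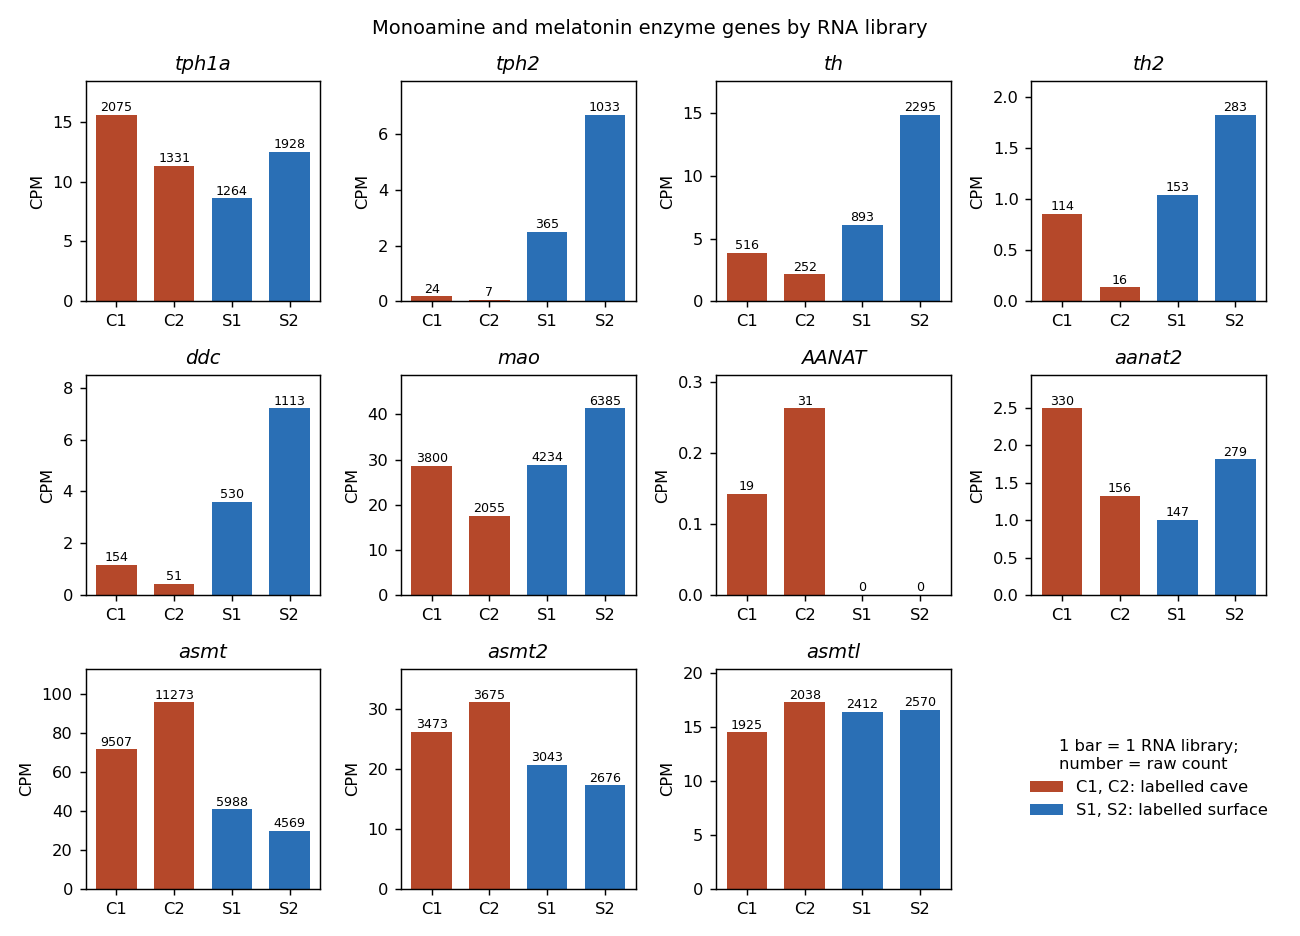
Level of each enzyme gene in CPM (linear axes from 0, a separate scale per gene) in the 4 RNA libraries, labelled cave (C1, C2) left of labelled surface (S1, S2), with the raw count above each bar. The bars of tph2 stand at 24 and 7 counts in cave-labelled against 365 and 1033 in surface-labelled libraries, while those of asmt stand at 9507 and 11273 against 5988 and 4569.

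Of the melatonin genes, asmt, asmt2 and the copy named AANAT had higher levels in both cave-labelled libraries than in either surface-labelled one, while aanat2 and asmtl overlapped between the groups. The acetylserotonin methyltransferase gene asmt (ENSAMXG00000012631, KB871853.1, 44199 to 48113, minus strand) had 9507 and 11273 counts in cave-labelled libraries, against 5988 and 4569 in surface-labelled ones, or 83.7 ± 17.1 CPM against 35.2 ± 7.91 CPM (SD, n = 2). Both cave-labelled libraries lay above both surface-labelled ones, by at least 1.76-fold. The log2 fold change of 1.32 (SE 0.30) missed the threshold in edgeR (Benjamini-Hochberg adjusted p = 0.0966) and passed it in DESeq2 (adjusted p = 0.0192). In edgeR it was 1.54 without cave replicate 1, 0.98 without cave replicate 2, 1.58 without surface replicate 1 and 1.05 without surface replicate 2.

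The further copy asmt2 (ENSAMXG00000017811, KB872266.1, 161210 to 174872, minus strand) had 3473 and 3675 counts in cave-labelled libraries, against 3043 and 2676 in surface-labelled ones. Its groups did not overlap either, and its log2 fold change was 0.67 (SE 0.27; edgeR, Benjamini-Hochberg adjusted p = 0.275). Without cave replicate 1 it was 0.82 and past the threshold (edgeR, Benjamini-Hochberg adjusted p = 0.0207), and with any of the other libraries left out it lay between 0.42 and 0.80 and was not. The related gene asmtl (ENSAMXG00000002602, KB871578.1, 5862724 to 5871846, minus strand), which lies on the same scaffold as mao, was level across libraries, at 15.9 ± 1.98 CPM against 16.5 ± 0.154 CPM (SD, n = 2). Its log2 fold change was 0.03 (SE 0.27; edgeR, Benjamini-Hochberg adjusted p = 0.972), with -0.22 when cave replicate 2 was left out and -0.04 when surface replicate 2 was.

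The acetyltransferase genes had few counts. The copy named AANAT (ENSAMXG00000015728, KB882152.1, 1429796 to 1431775, minus strand; the files mark its name as shared by several copies) had 19 and 31 counts in cave-labelled libraries and 0 in both surface-labelled libraries. With the surface group set to a floor of 6 counts, its level in the cave-labelled group was 10.03-fold higher. This ratio to a floor leaves out the counting error of the few cave counts, so it is no lower limit. It missed the threshold in edgeR (Benjamini-Hochberg adjusted p = 0.108), and passed it in DESeq2 (adjusted p = 0.032). The gene aanat2 (ENSAMXG00000016495, KB872051.1, 338907 to 348651, minus strand), the pineal form in zebrafish, had 330 and 156 counts in cave-labelled libraries, against 147 and 279 in surface-labelled ones. Its groups overlapped and its log2 fold change was 0.53 (SE 0.57; edgeR, Benjamini-Hochberg adjusted p = 0.687). It overlaps rhbdf1a on the opposite strand, so reads may be shared there too.

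Over all 11 genes, 1 was past the threshold in edgeR, tph2, against 3.18% of the 22850 genes tested; since tph2 was chosen for that difference, nothing is read from this count. The counts that follow leave out tph2 and th. Of the other 9 genes, edgeR with Benjamini-Hochberg adjustment called 0, and 3 had an unadjusted p under 0.05, as 18.3% of all genes tested did. DESeq2 called 2 of the 9 higher and 1 lower, against 6.94% of all genes higher and 3.31% lower. Without cave replicate 1 edgeR called 3 of the 9 higher and 3 lower, against 12.9% and 18.1% of all genes, and without cave replicate 2 it called 2 higher and 1 lower, against 11.2% and 8.37%. With either surface replicate left out it called 0 of the 9, as of all genes. With the replicate number as a block it also called 0 of the 9, against 1.39% of all genes higher and 0.153% lower. Both cave-labelled libraries lay below both surface-labelled ones for 3 of 9 genes (27.7% of all genes tested) and above them for 3 of 9 (25.4%); groups that do not overlap were found in 53.1% of all genes. The median log2 fold change was 0.44 over the 9 genes and 0.02 over all genes tested. Under the other scalings and without a filter on low counts, no log2 fold change of these genes changed sign.

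**Figure D2:**
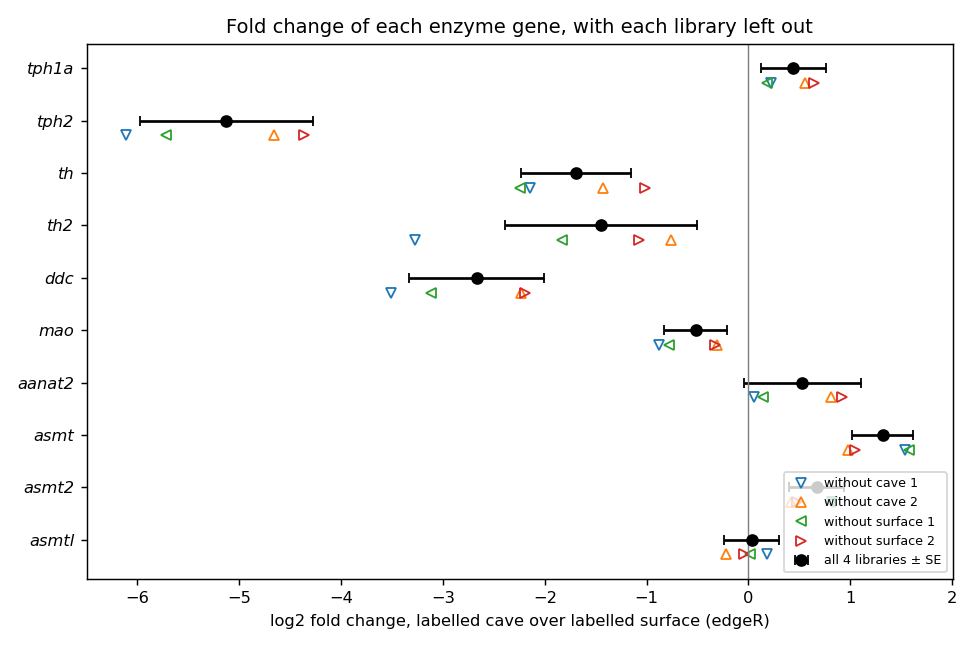
Log2 fold change (edgeR, labelled cave over labelled surface, horizontal axis) of 10 enzyme genes; the copy named AANAT is left out because its surface libraries had 0 counts. Black points with bars are the fits on all 4 libraries with their SE and open triangles the fits with 1 library left out; tph2 lies between -6.11 and -4.36 throughout and th2 between -3.27 and -0.76.

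Of the serotonin and dopamine genes, tph1a had another order of libraries than the rest. In tph2, th, th2, ddc and mao the levels from high to low were surface replicate 2, surface replicate 1, cave replicate 1 and cave replicate 2. Since tph2 and th were chosen for being lower in cave-labelled libraries, they do not count here. Without them 3 of 9 genes had this order, as did 10.8% of all genes tested. From high to low tph1a and aanat2 had cave replicate 1, surface replicate 2, cave replicate 2 and surface replicate 1. The genes asmt and asmt2 had the reverse of the order of tph2, which 6.57% of all genes had. These orders were noticed after the values were seen and were not tested.

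The summed forebrain and hypothalamus markers stood in the same order as tph2, th, th2, ddc and mao. Their summed level over 22 genes was 249 and 132 CPM in cave-labelled libraries, against 459 and 747 CPM in surface-labelled ones. A negative log2 fold change was found for 20 of 22, and the median was -1.71, against 0.02 over all genes tested. In edgeR 1 was past the threshold and lower (0.407% of all genes), and 0 markers were at 0 in all libraries. Per 100 CPM of that sum, th stood at 1.56 and 1.62 CPM in cave-labelled libraries, against 1.32 and 1.99 CPM in surface-labelled ones, and the groups overlapped on this scale. On the same scale tph2 stood at 0.0725 and 0.0450 CPM against 0.541 and 0.895 CPM and ddc at 0.465 and 0.328 CPM against 0.786 and 0.964 CPM, with no overlap between the groups. Since tph2 and th were chosen for being lower in cave-labelled libraries, their values on this scale are a description, and nothing is read from them. The level of mao on this scale was 11.5 and 13.2 CPM in cave-labelled libraries, against 6.28 and 5.53 CPM in surface-labelled ones, so its direction turned, with no overlap. For th2 it was 0.345 and 0.103 CPM in cave-labelled libraries, against 0.227 and 0.245 CPM in surface-labelled ones, and the groups overlapped. The part of brain tissue in these differences was not tested.

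Markers of hindbrain and raphe summed to 82.1 and 39.8 CPM in cave-labelled libraries, against 99.2 and 162 CPM in surface-labelled ones, over 12 genes of which 9 had a negative and 3 a positive log2 fold change. Markers of sympathetic and noradrenergic cells summed to 45.6 and 24.0 CPM in cave-labelled libraries, against 70.0 and 130 CPM in surface-labelled ones, over 8 genes of which 5 were negative and 3 positive. Of either list 0 were past the threshold in edgeR, against 2.77% of all genes tested higher and 0.407% lower. The gene gata3 is in both lists and had the highest mean level in each. Without it, a check added after the values were seen, the hindbrain and raphe sums were 50.9 and 34.5 CPM in cave-labelled libraries, against 48.3 and 61.8 CPM in surface-labelled ones, and the groups overlapped. Highest in these sums were lmx1bb (25.7 and 17.4 against 29.2 and 33.6 CPM) and slc6a4a (15.1 and 13.4 against 15.6 and 14.8 CPM). The regulator gene fev hardly enters them, with 32 and 1 counts in cave-labelled libraries against 50 and 202 in surface-labelled ones (log2 -2.6). The sympathetic sums without gata3 were 14.4 and 18.7 CPM in cave-labelled libraries, against 19.2 and 29.4 CPM in surface-labelled ones. Amacrine cell markers, among which the dopamine cells of the retina fall, did not separate the groups, at 1110 and 1430 CPM in cave-labelled libraries against 849 and 1190 CPM in surface-labelled ones over 18 genes. Of these 11 had a positive and 7 a negative log2 fold change, and 1 was past the threshold and higher (2.77% of all genes tested). It was calb2b, with 28781 and 46317 counts in cave-labelled libraries against 9234 and 7251 in surface-labelled ones. The part of these cells in the results was not tested.

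The summed pineal markers stood in the order of asmt and asmt2. Over 9 genes their sum was 367 and 569 CPM in cave-labelled libraries, against 204 and 183 CPM in surface-labelled ones, and 7 had a positive and 2 a negative log2 fold change. Past the threshold were rgra and parapinopsinb, both higher in cave-labelled libraries, as 2.77% of all genes tested were. The negative ones were bsx (-2.68), with 555 and 106 counts in cave-labelled libraries against 2080 and 3131 in surface-labelled ones, and parietopsin (-0.33), with 148 and 0 counts in cave-labelled libraries against 88 and 135 in surface-labelled ones. Several of these genes, rgra and lhx4 among them, are also expressed in the retina. Per 100 CPM of the pineal sum, asmt stood at 19.541 and 16.84 CPM in cave-labelled libraries, against 19.998 and 16.119 CPM in surface-labelled ones. On that scale the groups overlapped, which rested on rgra, the gene with the highest mean level in the list. Without rgra, a check added after the values were seen, the pineal sums were 195 and 339 CPM in cave-labelled libraries, against 158 and 140 CPM in surface-labelled ones. Relative to these sums asmt, at 71.6 and 95.7 CPM in cave-labelled libraries and 40.8 and 29.6 CPM in surface-labelled ones, did not overlap between the groups. Per 100 CPM of the photoreceptor sum it stood at 1.23 and 1.47 CPM against 33.5 and 22.1 CPM. Per 100 CPM of the full pineal sum, asmt2 stood at 7.14 and 5.49 CPM in cave-labelled libraries, against 10.2 and 9.44 CPM in surface-labelled ones. On that scale the direction of asmt2 turned, with no overlap. Its own levels were 26.2 and 31.2 CPM in cave-labelled libraries and 20.7 and 17.3 CPM in surface-labelled ones. Relative to the sums without rgra they overlapped between the groups. What part these cells have in the levels of asmt and asmt2 was not tested.

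**Figure D3:**
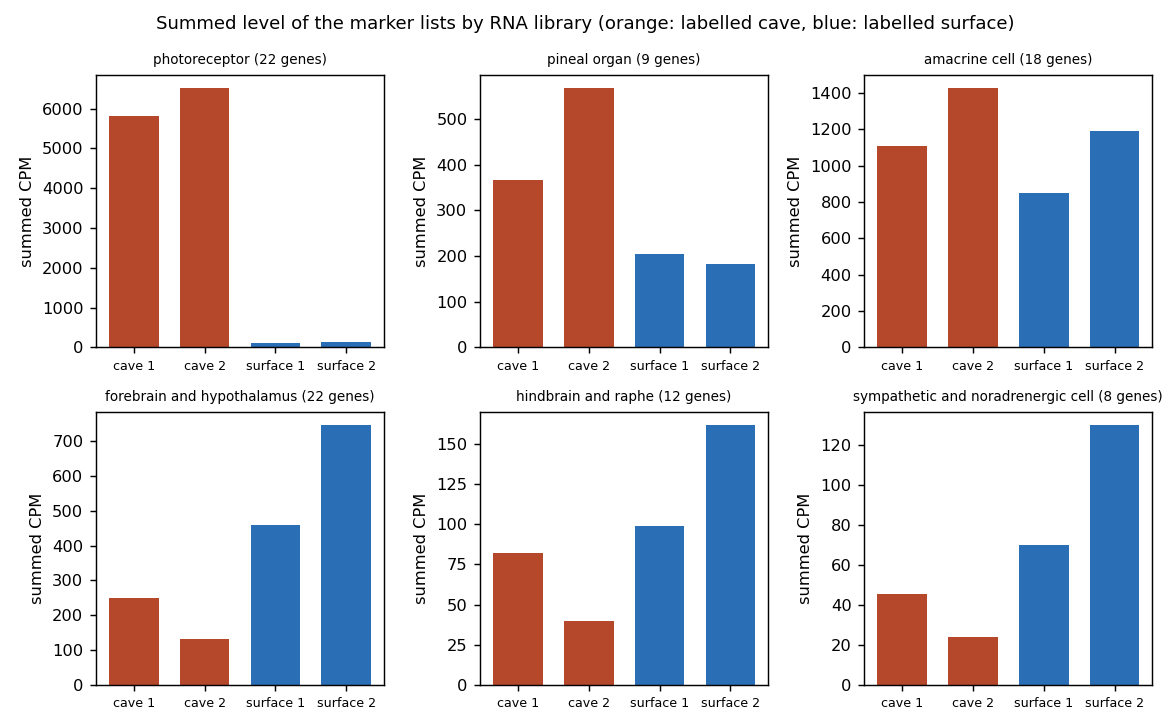
Summed CPM (linear axes from 0) of 6 marker lists in each RNA library, labelled cave left of labelled surface. Photoreceptor and pineal sums are higher in both cave-labelled libraries (5820 and 6530 against 122 and 134 CPM for photoreceptors), forebrain and hypothalamus sums are lower (249 and 132 against 459 and 747 CPM), and amacrine sums overlap.

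DNA methylation was compared as the share of methylated calls in the region the files name upstream, whose width they do not give, and in the gene body. With 1 WGBS library per morph a test compares these 2 libraries, not the morphs, and calls on the same read are not independent, so the exact Clopper-Pearson 95% intervals given here cover counting error only and are too narrow. The upstream region of th was methylated in 86.8% of 1346 calls in the cave library (84.8% to 88.5%), against 15.3% of 1981 calls in the surface library (13.8% to 17.0%). The difference of 71.4 points is one of the values th was chosen for. A difference at least as large was found in 23 of 23680 upstream regions.

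No difference of that size was found in the gene body of th or at the neighbouring genes. The gene body stood at 53.4% of 8764 calls in the cave library, against 49.6% of 9014 calls in the surface library. The nearest gene on the 5′ side, ENSAMXG00000016679, lies 20402 bases away, and its upstream region stood at 0.800% against 5.26%. The nearest on the 3′ side, the growth factor gene igf2b, lies 8480 bases away, with 16.4% against 25.2% upstream. Neither was called. The direction of the upstream difference at th, more methylated in the cave library, stood beside a lower RNA level in cave-labelled libraries. This pairing depends on the labels of the RNA libraries, and whether they are right was not tested. The 2 measures of this single gene, both known when it was chosen, are no test of a relation.

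The upstream region of tph2 was highly methylated in both libraries, at 87.1% of 1618 calls in the cave library (85.4% to 88.7%) and 90.3% of 1476 calls in the surface library (88.7% to 91.8%). Its gene body stood at 90.8% and 86.9%. Differences at least as large as the -3.17 points upstream were found in 58.2% of all upstream regions. Both regions of tph2 differed by less than 4 points between the WGBS libraries.

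Of the other 9 genes, a call needed an adjusted p below 0.05 (two-sided Fisher's exact test, Benjamini-Hochberg over all regions) and a difference of at least 10 points. Only the upstream region of the copy named AANAT met both, at 91.9% of 246 calls in the cave library (87.7% to 94.96%), against 79.3% of 251 calls in the surface library (73.7% to 84.1%; Fisher's exact test, Benjamini-Hochberg adjusted p = 0.000196). Over all genes 12.1% of upstream regions were called higher and 8.67% lower in the cave library. With a limit of 25 points AANAT was no longer called.

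Upstream regions of the remaining genes ranged from nearly unmethylated to highly methylated. Those of mao and th2 were nearly free of methylation, at 2.45% in the cave library against 0.659% in the surface library for mao and 3.55% against 1.91% for th2. Those of asmt (88.6% against 91.1%), asmt2 (95.3% against 86.0%) and aanat2 (85.2% against 93.9%) were highly methylated and their genes had between 147 and 11273 RNA counts per library. The region of ddc stood at 75.9% of only 166 calls in the cave library, against 75.6% of 246 calls in the surface library, with intervals of 68.7% to 82.2% and 69.7% to 80.8%. The region of asmtl stood at 55.8% against 55.9%. Tph1a had intermediate levels, at 34.2% against 24.7%, and its difference of 9.56 points lay just under the limit for a call.

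Of the 11 gene bodies 0 were called, against 3.15% of all gene bodies called higher and 1.99% lower in the cave library (5.14% in either direction). The gene body of tph1a was the least methylated of the 11, at 24.2% of 10542 calls in the cave library against 14.3% of 10325 calls in the surface library, and 2.70% of all gene bodies stood below it in the surface library. Its difference of 9.81 points was again just under the limit. Of the others, th2 stood at 41.5% against 45.2%, th at 53.4% against 49.6%, and mao at 68.7% against 67.9%. The AANAT copy, aanat2, asmt, asmt2, ddc, tph2 and asmtl had between 78.9% and 93.6% in the cave library and between 74.1% and 91.5% in the surface library. The median over all gene bodies was 83.4% and 82.1%.

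Some upstream regions held fewer calls in the cave library than in the surface library, in the calls as deposited. All values of the cave library were even, and the ratios given here use its calls before halving. With halved cave calls every ratio would be lower. Per call in the surface library there were 0.576 calls in the cave library for th2, 0.623 for asmt2, 0.675 for ddc, 0.679 for th and 0.754 for mao, while the other 6 lay between 0.980 and 1.26. In gene bodies the ratio lay between 0.821 and 1.38. The share of all upstream regions with such ratios is not given here, so the listed values cannot be called unusual. The part of this in the methylation differences was not tested.

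**Figure D4:**
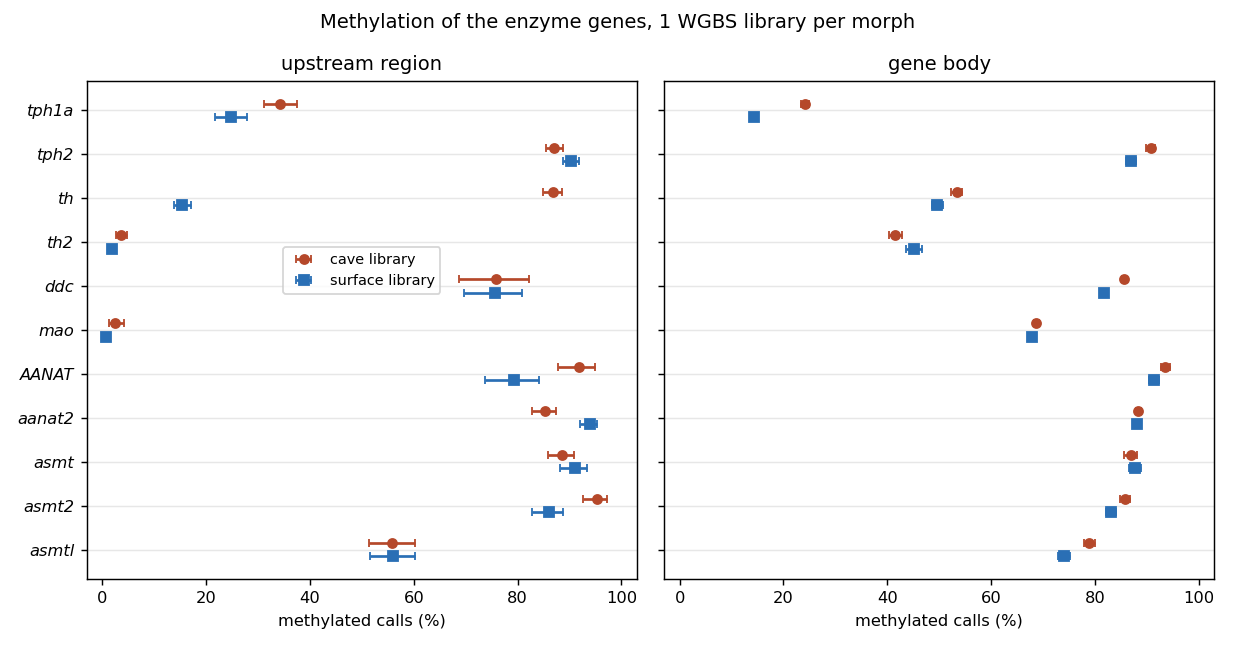
Methylated calls (%, horizontal axes) in the upstream region and the gene body of each enzyme gene, for the cave library (circles) and the surface library (squares), with exact 95% Clopper-Pearson intervals. The upstream regions of th stand 71.4 points apart, while the other 10 upstream regions differ by at most 12.6 points.

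Genes that supply, carry or receive these transmitters were counted next, in 6 lists. Over all genes tested edgeR called 2.77% higher and 0.407% lower and 18.3% had an unadjusted p under 0.05, while DESeq2 called 6.94% higher and 3.31% lower. For the cofactor tetrahydrobiopterin, which tryptophan and tyrosine hydroxylases need, only 6 of 13 listed names were found, and gch1 was not among them. Of these 6 tested genes 2 were past the threshold and higher in cave-labelled libraries and 0 lower. Their median log2 fold change was 0.95. The recycling enzyme gene pcbd1 had 6303 and 6521 counts in cave-labelled libraries, against 2882 and 3136 in surface-labelled ones (log2 1.45, SE 0.22; edgeR, Benjamini-Hochberg adjusted p = 0.0349). The gene gch2, whose zebrafish counterpart acts in pteridine pigment cells, had 2250 and 1268 counts in cave-labelled libraries, against 2 and 2 in surface-labelled ones (edgeR, Benjamini-Hochberg adjusted p = 0.00288). Taking 2 counts as a read pair, its ratio of labelled cave to labelled surface was 1060 with a 95% counting interval of 293 to 8740, which the 4 surface counts limit. The synthesis enzyme gene PTS had 7665 and 3715 counts in cave-labelled against 3251 and 3383 in surface-labelled libraries (log2 1.09), qdpra 2072 and 2831 against 1854 and 1931 (0.74), and PCBD2 1806 and 1693 against 2279 and 2191 (-0.01), none past the threshold. Of the 6 cofactor genes 5 had a positive log2 fold change. Among the tryptophan and tyrosine hydroxylase genes it was positive for tph1a (0.44) and negative for th2 (-1.45). It was also negative for tph2 and th, but these were chosen for being lower, so nothing is read from their side.

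Genes of dopamine and noradrenaline handling had 2 of 23 tested genes higher (2.77% of all genes), 0 lower (0.407%), and a median log2 fold change of -0.33. The D4 receptor gene drd4a, a receptor that rodents express in photoreceptors, had 3372 and 3722 counts in cave-labelled libraries, against 538 and 526 in surface-labelled ones (log2 3.09, SE 0.30; edgeR, Benjamini-Hochberg adjusted p = 0.0106). The copy named COMTD1, which carries a catechol methyltransferase domain, had 20676 and 18153 counts in cave-labelled against 7714 and 5746 in surface-labelled libraries (log2 1.85, SE 0.27; edgeR, Benjamini-Hochberg adjusted p = 0.0331). The dopamine transporter gene SLC6A3, a marker of dopamine neurons, had 749 and 171 counts in cave-labelled libraries, against 1903 and 2784 in surface-labelled ones. Like ddc it was past the threshold in DESeq2 and not in edgeR (log2 -2.05, SE 0.65; adjusted p = 0.0148 in DESeq2 and 0.188 in edgeR, Benjamini-Hochberg). The catechol methyltransferase gene comta had 3390 and 1649 counts in cave-labelled against 2298 and 2529 in surface-labelled libraries (log2 0.38), with overlapping groups. Upstream of drd4a methylation stood at 15.9% in the cave library against 36.5% in the surface library, and upstream of COMTD1 43.3% against 19.8%, called in opposite directions. Of the other genes past the RNA threshold, pcbd1 was called higher upstream (89.9% in the cave library against 73.3% in the surface library), gch2 was called higher in the gene body (87.5% in the cave library against 60.6% in the surface library), and kynu was called in neither region. Of all upstream regions 20.7% were called, and of all gene bodies 5.14%.

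Serotonin transport and receptor genes had 0 of 20 tested past the threshold in edgeR, 4 at an unadjusted p under 0.05 (18.3% of all genes) and 3 lower in DESeq2 (3.31%), with a median log2 fold change of -0.91 and 14 of 20 negative. The serotonin transporter gene slc6a4a was level, with 2009 and 1572 counts in cave-labelled libraries against 2288 and 2280 in surface-labelled ones (log2 -0.02, SE 0.27). Its copy slc6a4b had 118 and 99 counts in cave-labelled against 377 and 501 in surface-labelled libraries, and the vesicular transporter SLC18A1 126 and 88 against 445 and 487 (log2 -1.66 and -1.79; DESeq2 adjusted p = 0.00538 and 0.00201, Benjamini-Hochberg). The receptor gene htr4 had 1844 and 725 counts in cave-labelled against 1092 and 875 in surface-labelled libraries (log2 0.67).

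Melatonin receptors and breakdown had 0 of 10 past the threshold in edgeR, with 2 at an unadjusted p under 0.05 (18.3% of all genes). There were 0 past it in DESeq2, and the median was 0.32. The receptor gene mtnr1ab had 215 and 397 counts in cave-labelled libraries against 143 and 111 in surface-labelled ones (log2 1.64, SE 0.61). Among the cytochrome genes, cyp1b1 had 1454 and 2748 counts in cave-labelled against 1208 and 1121 in surface-labelled libraries (log2 1.23), cyp1a 3789 and 396 against 4431 and 9833 (-1.47) and cyp1c1 1475 and 232 against 873 and 834 (0.26). The cave replicates of cyp1a and cyp1c1 were further apart than the group means.

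Tryptophan and tyrosine breakdown had 1 of 11 tested genes lower (0.407% of all genes), 0 higher (2.77%), and a median of -0.08. The lower gene was kynu, of the kynurenine route of tryptophan. It had 91 and 50 counts in cave-labelled libraries against 2566 and 2761 in surface-labelled ones (log2 -4.92, SE 0.41, edgeR, Benjamini-Hochberg adjusted p = 0.00841). The phenylalanine hydroxylase gene pah, the neighbour of th2 at 2007 bases on its 5′ side, had 4759 and 6988 counts in cave-labelled against 3459 and 2834 in surface-labelled libraries (log2 1.26), so the pair lay on opposite sides of 0, pah not past the threshold (edgeR, Benjamini-Hochberg adjusted p = 0.143). Genes afmid (log2 0.29) and haao (-0.08) were near 0.

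Regulators of monoamine and melatonin cells had 0 of 15 past the threshold in edgeR, 6 at an unadjusted p under 0.05 (18.3% of all genes), 1 higher (6.94%) and 3 lower (3.31%) in DESeq2, and a median of -1.08. The hypothalamic regulator gene otpa, which dopamine cells of the zebrafish diencephalon need, had 4326 and 610 counts in cave-labelled libraries against 12607 and 28440 in surface-labelled ones (log2 -2.75, SE 0.86), and gata3 4135 and 614 against 7468 and 15462 (-1.97). The regulators otpa, gata3, bsx, lmx1bb, ascl1a and fev are also in the marker lists above. Their values enter both, so this list is not separate from those sums. The photoreceptor and pineal regulator gene crx had 31865 and 64422 counts in cave-labelled against 24153 and 18445 in surface-labelled libraries (1.55), and otx2 17243 and 33954 against 28745 and 24598 (0.32), with overlapping groups.

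**Figure D5:**
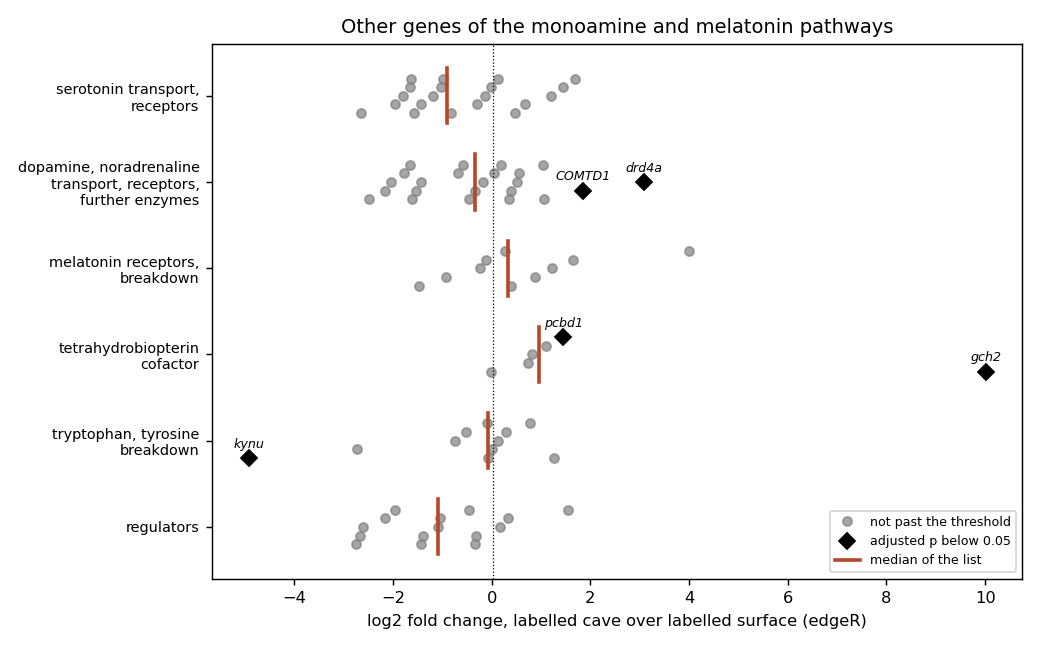
Log2 fold change (edgeR, labelled cave over labelled surface, horizontal axis) of each tested gene in 6 pathway lists; black diamonds are genes past the threshold, vertical bars the list medians and the dotted line the median of all genes. The fitted value of gch2 rests on 4 surface counts and depends on the prior count. The genes past the threshold are drd4a, COMTD1, pcbd1 and gch2 on the higher side and kynu on the lower side.

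The genes most like tph2 and th over the 4 RNA libraries were found by the Euclidean distance of their centred log2(CPM + 0.5), among 12286 genes that carry a symbol and average at least 1 on the log2 CPM scale. Nearest to tph2 were pou3f2a at a distance of 0.366, ppef1 at 0.643, pou1f1 at 0.707, nkx2.4b at 0.708 and SLC25A24 at 0.715. Their log2 fold changes, in that order, were -3.09, -2.74, -4.11, -2.71 and -2.28, all smaller in size than the -5.13 of tph2. The added 0.5 exceeds the levels of tph2 in cave-labelled libraries (0.181 and 0.0595 CPM), so the distance shrinks its difference. Of these pou3f2a, a neural transcription factor gene, had 288 and 166 counts in cave-labelled libraries against 1730 and 3222 in surface-labelled ones, and pou1f1, a pituitary regulator gene, 80 and 6 against 685 and 1125. Nearest to th were grm3 at 0.144, CSMD1 at 0.150, PPFIA3 at 0.206, znf219 at 0.227 and zbtb38 at 0.258. The glutamate receptor gene grm3 had 455 and 214 counts in cave-labelled libraries against 830 and 1855 in surface-labelled ones. With 4 libraries a small distance is easily reached, and it describes these libraries only.

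The headers of the authors' deposited table of their own comparison name no direction for its log2 fold change. The signs of the genes given here are the reverse of those above, so they read as surface over cave by the names of the count columns. Whether this comes from the order in which the morphs were compared or from the labels of the RNA libraries was not tested. There tph2 has a log2 fold change of 4.03 and th 1.50, given as a description. In the authors' deposited table ddc has 2.26 and asmt -1.20, with adjusted p-values of 0.000603 and 0.0196. The AANAT copy has -1.67 with an adjusted p of 0.124 in the authors' deposited table. DESeq2 here gave it 7.45 and passed it (Benjamini-Hochberg adjusted p = 0.032). For tph2 the authors' value was also smaller in size than that of DESeq2 here (-5.18). How the authors' fold changes were scaled is not given in the sources used here, so their sizes cannot be set against those above. The other 6 genes have adjusted p-values between 0.339 and 0.999 in the authors' deposited table.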

How the data were processed

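The authors deposited raw counts per gene for 4 RNA libraries, for 2 WGBS libraries the counts of calls that were methylated or not in each gene, and a table of their own comparison that holds, per the file headers, a log2 fold change with its error and an adjusted p-value. Bismark, STAR, Trimmomatic, Subread with featureCounts, and DESeq2 are listed in the submitters' processing notes; versions, genome build, strand setting and upstream width: not given in the sources used here. Between 74.4% and 86.6% of counts from 1 to 30 were even, as if both mates of most pairs were counted, so a floor of 6 counts stands for 3 read pairs. All values of the cave WGBS library were even, so its calls were also halved.

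Differences in counts were then computed in R 4.3.3 by edgeR 4.0.16 (TMM, filterByExpr, quasi-likelihood test, 2 against 2 libraries, Benjamini-Hochberg over 22850 genes, threshold 0.05). The SE divides the absolute log2 fold change by the root of its F value. CPM uses library totals. DESeq2 1.42.0 was an alternative. Regions covered by 20 or more calls in both WGBS libraries were compared by Fisher's exact test (scipy 1.17.1), 23680 upstream regions and 25016 gene bodies; total calls were 43378558 and 42555064 upstream and 469015502 and 448796711 in gene bodies for the cave and the surface library. Both tests were checked on simulated data. Groups came from the sample labels. The genes, lists and tests were chosen with earlier results of these data known. Genes named are all 11 enzyme genes, the genes past the threshold and the 4 with the highest mean CPM in each of 6 pathway lists, the 5 nearest to tph2 and th, and marker list sums. Some genes of the marker lists, and regulators shared with them, are also named. No sequence is printed.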

Additional observations from a re-analysis of the deposited data

How the results depend on the processing

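Counts of calls depended on the tool and the libraries. DESeq2 called 1606 of all genes higher and 767 lower in cave-labelled libraries, where edgeR called 633 and 93; of the 11 enzyme genes it called 2 higher and 3 lower, where edgeR called 0 and 1 (the lower ones include tph2, and in DESeq2 also th, which were chosen for being lower), and of the pathway genes 10 lower, where edgeR called 1. With 1 library left out, edgeR called between 0 and 2989 of all genes higher and between 0 and 4203 lower, between 0 and 3 enzyme genes higher and between 0 and 5 lower, and between 0 and 12 pathway genes higher and between 0 and 26 lower. Counts of calls were smallest without either surface replicate, where the spread comes from the cave pair, and largest without cave replicate 1. The log2 fold change of asmtl, 0.03, lay between -0.22 and 0.18 with 1 library left out and was negative without cave replicate 2 (-0.22) and without surface replicate 2 (-0.04). A limit of 25 points removed the upstream call of the AANAT copy, while the minimum number of calls and halved cave calls moved no count of enzyme genes. With halved counts the AANAT copy fell below the filter. The replicate numbers are shared between morphs but no label says that they pair the libraries, and the differences of replicate 1 minus replicate 2 had a correlation of -0.0709 across genes between morphs. With the replicate number as a block edgeR called 318 genes higher and 35 lower, 2 pathway genes higher and 0 enzyme genes lower. The gene lost was tph2, which was chosen for being lower, so nothing is read from its call. Low counts limit tph2, th2 and the AANAT copy most, and 166 and 246 calls the upstream region of ddc.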
